A study of Mus musculus with 4 samples.

Results

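The nuclear-encoded subunits of the mitochondrial oxidative phosphorylation complexes were taken from the deposited gene table by their symbols. Symbols of the Ndufa, Ndufb, Ndufc, Ndufs and Ndufv series, Sdha to Sdhd, and all symbols that begin with Uqcr, with Cox and a digit from 4 to 8, or with Atp5 were kept, and the Ndufaf assembly factors were dropped. This gave 84 of the 18373 genes in the table, of which 40 were assigned to complex I, 4 to complex II, 8 to complex III, 15 to complex IV and 17 to complex V. The rule uses symbols alone. It holds some genes that are not plain subunits of the complex their symbol names, such as Ndufa4, now placed in complex IV, Cox7a2l, which helps to join complexes into supercomplexes, and Atp5s, a coupling factor.

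The cells were primary liver sinusoidal endothelial cells (LSECs), the fenestrated endothelium that lines the small blood channels of the liver, isolated from Balb/c mice aged 8 weeks. The methods describe collagenase perfusion, a density gradient and anti-CD146 magnetic beads, while the labels name pronase together with collagenase. They were cultured for 24 h and then exposed to siRNA for 48 h, and the labels give their stage as day 3. RNA was sequenced in 4 libraries, 2 from cells given a control siRNA (NC) and 2 from cells given siRNA against the long noncoding RNA Airn (siAirn), and all 4 share strain, isolation and culture. The sample titles call the siAirn libraries siAirn1_1 and siAirn1_2, while the design text speaks of separate siRNAs, so whether they hold 1 siRNA or 2 is not settled here, and how many mice gave each library is not given in the sources used here. The comparison asks how the knockdown changes the transcriptome of LSECs.

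Library totals lay between 17308382 and 18371959 estimated counts. Counts of Airn itself were 7 and 3 for NC, and 11 and 9 for the libraries labelled siAirn, a ratio of 2.02 per library total with an exact 95% interval of 0.903 to 4.83 that covers counting error only. A lower count of Airn was thus not seen in these few reads, and every direction below is between library labels. All 8 LSEC markers (Stab1, Stab2, Lyve1 and others) and all 8 endothelial markers averaged above 1 CPM (counts scaled to library size). The summed LSEC markers reached 3428 and 3451 CPM in NC against 2421 and 2189 CPM in the libraries labelled siAirn.

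Oxidative phosphorylation passes electrons from NADH through complex I, or from succinate through complex II, to ubiquinone, then through complex III and cytochrome c to complex IV, where oxygen is reduced. Complexes I, III and IV pump protons across the inner mitochondrial membrane, and complex V, the ATP synthase, uses the proton gradient to make ATP. Most subunits are encoded in the nucleus and made in the cytosol, a small core is encoded in mitochondrial DNA, and endothelial cells are known to draw much of their ATP from glycolysis. The subunits encoded in mitochondrial DNA were not analysed here.

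Nearly all subunit genes had somewhat lower values in the libraries labelled siAirn than in NC, by a modest amount. Of the 84 members, 78 had enough counts to be tested, and the fitted log2 fold change (siAirn over NC) was below 0 for 77 of them, against 49.9% of all 13628 genes tested. The median member log2 fold change was -0.22, with quartiles at -0.28 and -0.16, while the median of all genes tested was 0.00. By the quasi-likelihood test of edgeR, adjusted over all genes by the Benjamini-Hochberg method, 15 members fell at an adjusted p under 0.05, which is 19.2% of those tested against 8.56% of all genes. No member was called higher, against 8.27% of all genes, and the sole member with a value above 0, Cox4i2, had an unadjusted p of 0.571. DESeq2 and limma also called none higher.

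An unadjusted p under 0.05 was reached by 43 members, against 34.0% of all genes in either direction. For 58 of the members tested, both siAirn libraries lay below both NC libraries, against 31.9% of all genes, and for none did both lie above. The threshold used in the study, a fold change over 1.4 with an unadjusted p under 0.05, was passed by 2 members, Ndufa8 and Atp5a1, against 4.72% of all genes that passed it downwards. The titles call the 2 libraries of each group biological replicates but do not say that they came from separate animals, so these p-values measure only the spread between the libraries. Fewer cells of a type and less RNA per cell cannot be told apart in such bulk samples.

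Much of this shift ran with transcript length. The members are short transcripts, and short genes as a class were lower in the libraries labelled siAirn. Each library was then corrected for the GC content and length of each gene's longest GENCODE transcript. After this GC and length correction, 4 of 77 members (Atp5f1, Cox6c, Ndufa8 and Ndufb5) were called lower at an adjusted p under 0.05. The share of all genes called lower was 5.13%. Of these 4 members, 3 were among the 15 above, and the median member log2 fold change was -0.08. With the length implied by the authors' own FPKM values in that correction, 1 of 76 members (Atp5f1) was called, against 4.66% of all genes, and the median was -0.03. The longest transcript and the implied length were 3038 and 384.5 bases for Cox6c, and 3127 and 773.8 for Ndufb5. They were 2527 and 1521 bases for Atp5f1, and 861 and 618.6 for Ndufa8. The calls below are those without the correction, and corrected values are given beside the called members described in full.

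**Figure D1:**
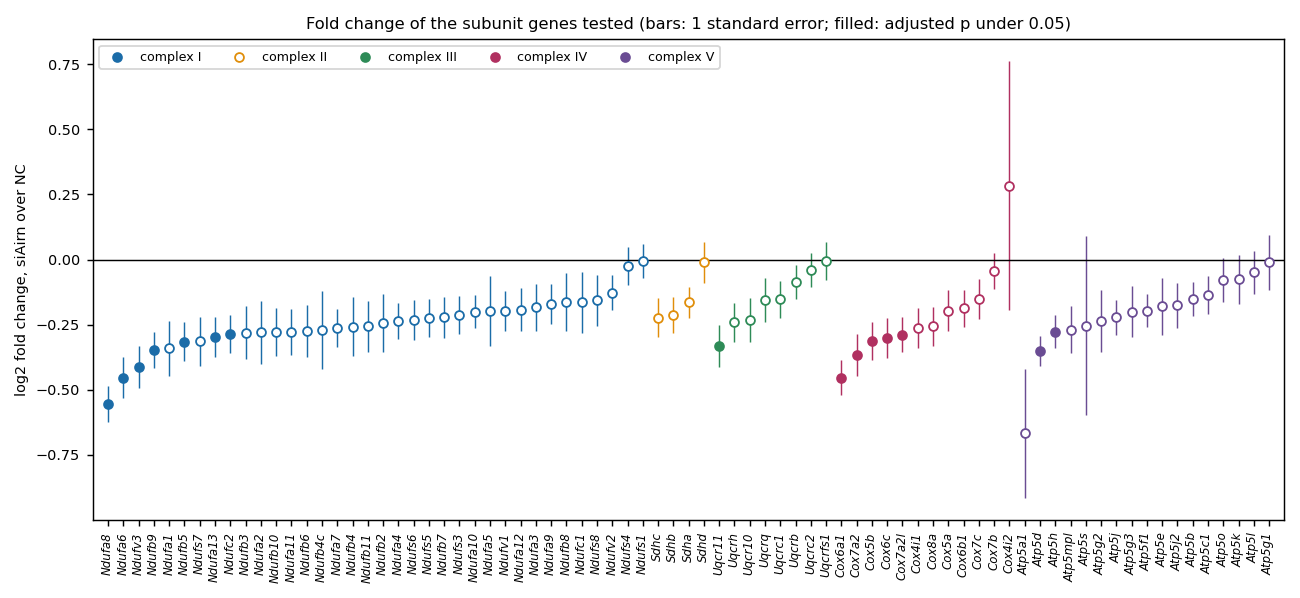
Fitted log2 fold change (siAirn over NC, vertical axis) of the subunit genes tested, 1 of the 78 not drawn, ordered within complexes I to V, with bars of 1 standard error and filled points for an adjusted p under 0.05. All genes but Cox4i2 sit below 0, with quartiles at -0.28 and -0.16, and the 15 filled points lie in complexes I, III, IV and V.

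In complex I, NADH dehydrogenase, all 37 members tested had a log2 fold change below 0, with a median of -0.25. Of these, 7 fell, 18.9% against 8.56% of all genes and 17.4% of all genes of the members' length. DESeq2 called 4 in the complex, limma on log2(FPKM + 1) 5 and the likelihood-ratio test 11. The shares of all genes called lower were 6.72%, 7.03% and 11.6%. The median decrease was larger among the accessory subunits than in the catalytic core. The 7 core subunits that carry the flavin, the iron-sulfur clusters and the quinone site (such as Ndufs1, Ndufs7 and Ndufv1) had a median of -0.16, and none passed the quasi-likelihood test, although 3 had an unadjusted p under 0.05. DESeq2 and limma also called no core subunit, while edgeR's likelihood-ratio test called 1, as did the correction for GC content alone. A fit with the replicate number as a block called 4 core subunits, against 17.9% of all genes. The other 30 members tested had a median of -0.26, with 7 called by the quasi-likelihood test. The difference between core and accessory subunits was not tested, and their median implied lengths were 1420 and 498.1 bases.

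Ndufs1, the largest core subunit and the holder of several iron-sulfur clusters, changed least in the complex. It stood at 77.3 and 75.9 CPM in NC and at 74.4 and 78.1 CPM in the libraries labelled siAirn, with a log2 fold change of -0.01 (SE 0.06). Its groups overlapped, and its direction turned in several alternatives. Ndufs7, which lines the quinone site, had the lowest value of the core, -0.31 (SE 0.09), with 53.1 and 62.7 CPM against 46.0 and 47.2 CPM and an adjusted p of 0.0622. Ndufv1, which binds NADH and the flavin, had 63.1 and 62.5 CPM in NC and 51.7 and 57.9 CPM in siAirn, with an adjusted p of 0.126.

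Ndufa8, an accessory subunit of the intermembrane space side at chr2:36036326-36049406 on the minus strand (GRCm38), was the most changed of the 15 called members. It measured 90.8 and 93.5 CPM in NC and 65.2 and 60.2 CPM in the libraries labelled siAirn, 31.9% lower, with a log2 fold change of -0.55 (SE 0.07) and an adjusted p of 0.00751. The groups did not overlap, and the gap between them was far wider than the spread within either. After the GC and length correction its log2 fold change was -0.34 with an adjusted p of 0.0420, and with the FPKM-implied length it was -0.30 with an adjusted p of 0.0619. None of its longest GENCODE transcript was shared with another gene in windows of 50 bases, the length of the reads. All its deposited counts were whole.

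Ndufa6, an accessory subunit of the LYR motif family, fell by 27.0%, from 53.3 and 57.2 CPM to 38.8 and 42.0 CPM, with a log2 fold change of -0.45 (SE 0.08) and an adjusted p of 0.0153. Ndufv3, a small accessory subunit of the NADH-oxidizing arm, fell by 24.9%, from 47.4 and 52.2 CPM to 38.1 and 36.8 CPM, with a log2 fold change of -0.41 (SE 0.08) and an adjusted p of 0.0203. In both genes the 4 libraries separated by label. The corrected log2 fold changes were -0.26 and -0.30, with adjusted p values of 0.0620 and 0.0521.

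The other 4 called members of complex I, named after their values were seen, were Ndufb9, Ndufb5, Ndufa13 and Ndufc2, all accessory subunits. Their log2 fold changes lay between -0.35 (Ndufb9) and -0.29 (Ndufc2), with adjusted p values from 0.0217 to 0.0416. After the GC and length correction Ndufb5 stood at -0.32 (adjusted p of 0.0423). The calls of Ndufb9 (-0.119, adjusted p of 0.242), Ndufc2 (-0.154, adjusted p of 0.187) and Ndufa13 (-0.054, adjusted p of 0.642) ended. With the FPKM-implied length Ndufb5 stood at -0.172 with an adjusted p of 0.148, so its call ended there too. Part of Ndufa13 is uncertain, since 28.5% of its 50-base windows also occur in other genes and 29.98% of its exonic sequence lies under another gene. Whether counting used strand is not given in the sources used here.

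Several accessory subunits lay just outside the call, and they too were picked after their values were seen. Ndufa7 had 49.7 and 52.7 CPM in NC and 42.4 and 42.9 CPM in siAirn, with a log2 fold change of -0.26 and an adjusted p of 0.0509. Ndufa1, an X-linked subunit needed for assembly of the membrane arm, had 18.6 and 21.0 CPM against 15.6 and 15.6 CPM, with -0.34 and an adjusted p of 0.0710. Ndufa11, a membrane subunit, had 62.3 and 71.0 CPM against 52.8 and 57.2 CPM, with -0.28 and an adjusted p of 0.0709. In these 3 genes the groups did not overlap. After the GC and length correction the log2 fold changes of Ndufa7, Ndufa1 and Ndufa11 were -0.12, -0.229 and -0.033. Their adjusted p values were then 0.285, 0.167 and 0.782. Ndufs4, an accessory subunit of the matrix arm whose loss in mice is a model of Leigh syndrome, stood out the other way, with 45.7 and 48.1 CPM against 45.1 and 47.0 CPM, overlapping groups and -0.03 (adjusted p of 0.834).

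By level, Ndufa4 led complex I with a mean of 402.1 FPKM (reads scaled to transcript length and library size, the unit that allows genes to be compared). It had 406 and 447.7 FPKM in NC and 379.3 and 375.2 FPKM in siAirn, and its fitted log2 fold change was -0.24 with an adjusted p of 0.0610. Ndufa12, an accessory subunit of the matrix arm, came next with a mean of 181.8 FPKM and a log2 fold change of -0.19 (adjusted p of 0.152). The median member tested in complex I stood at 79.8 FPKM and the lowest, Ndufa11, at 23.9 FPKM. The level of Ndufa11 rests on an implied length of 2541 bases, against 918 bases for its longest GENCODE transcript.

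The 3 untested members of complex I were near or at zero. Ndufa4l2, a relative of Ndufa4 known as a hypoxia-induced gene, was counted 2 and 3 times in NC, and 3 and 3 times in siAirn. Ndufa11b had 1 and 3 against 1 and 1. Ndufb4b, a copy of Ndufb4, was listed at 0 and 8.49 counts in NC and at 8.2 and 0 in siAirn, which are fractional estimates in 1 library of each group. Its relative Ndufb4c was tested and measured 22.8 and 17.6 CPM against 15.4 and 18.1 CPM, with overlapping groups. Of the windows of Ndufb4, 37.0% occur elsewhere, most often in Ndufb4c, so the split of reads among the copies is uncertain.

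**Figure D2:**
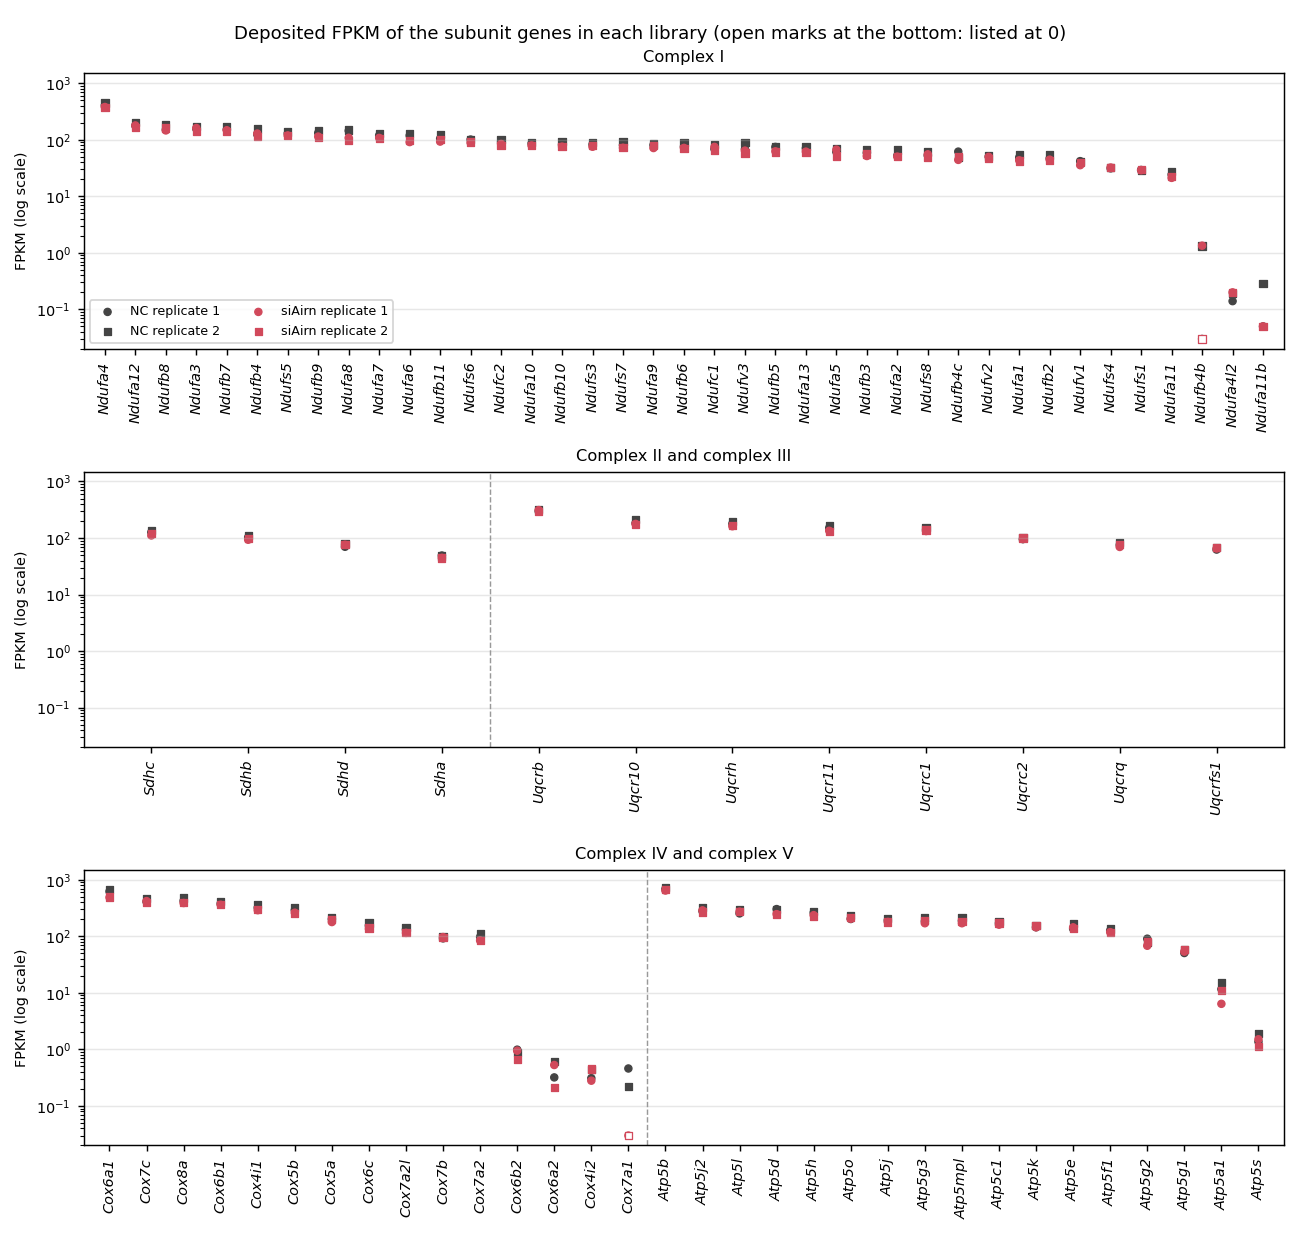
Deposited FPKM (log scale, vertical axis) of the subunit genes in the 4 libraries, 1 of the 84 not drawn, grouped by complex and ordered by mean within it, in grey for NC and red for siAirn, with circles for replicate 1 and squares for replicate 2. Most genes lie between 23.9 and 685.4 FPKM with the 4 libraries close together, and the low outliers are Ndufb4b, Ndufa4l2, Ndufa11b, Cox6b2, Cox6a2, Cox4i2, Cox7a1, Atp5a1 and Atp5s.

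Complex II, succinate dehydrogenase, is the enzyme that the respiratory chain shares with the tricarboxylic acid cycle and the one with no subunit encoded in mitochondrial DNA. None of its 4 genes was called by the quasi-likelihood test, and none by DESeq2, limma or the likelihood-ratio test, although 3 had an unadjusted p under 0.05. A fit with the replicate number as a block called 3 of the 4, against 17.9% of all genes. Its median log2 fold change was -0.19.

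Sdhc, a membrane anchor and the highest of the complex at a mean of 123.5 FPKM, had 133.8 and 144.2 CPM in NC and 113.4 and 124.7 CPM in siAirn. The groups did not overlap, and the log2 fold change was -0.22 (SE 0.08) with an adjusted p of 0.0853. Sdhb, the iron-sulfur subunit, had 99.4 and 107.4 CPM against 86.8 and 91.7 CPM, with -0.21 (SE 0.07) and an adjusted p of 0.0814. Sdha, the flavoprotein that oxidizes succinate, had 135.9 and 133.4 CPM against 119.9 and 120.4 CPM, with -0.16 (SE 0.06) and an adjusted p of 0.103. These 3 genes separated by label, but not Sdhd, the second anchor, which had 82.7 and 94.1 CPM in NC and 86.7 and 88.9 CPM in siAirn and a log2 fold change of -0.01 (SE 0.08).

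Complex III, the cytochrome bc1 complex, had a median of -0.16 and 1 called gene among 8, 12.5% against 8.56% of all genes and 17.4% of genes of the members' length. Uqcr11, a very small accessory subunit, at chr10:80402997-80406830 on the minus strand, fell by 20.5%, from 48.9 and 54.2 CPM to 40.9 and 41.1 CPM, with a log2 fold change of -0.33 (SE 0.08) and an adjusted p of 0.0338. The corrected value was -0.07 with an adjusted p of 0.531, so this call was lost under the correction. It was also lost with DESeq2 (adjusted p of 0.0692), with limma (0.0565 and 0.0569) and without any 1 library (0.0617 to 0.197).

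Uqcrfs1, the Rieske iron-sulfur protein, which hands electrons to cytochrome c1, had nearly equal values in both groups. It had 75.5 and 81.9 CPM in NC and 76.3 and 80.5 CPM in siAirn, with a log2 fold change of -0.01 (SE 0.07) and overlapping groups. The structural core subunits Uqcrc1 and Uqcrc2 had log2 fold changes of -0.15 (adjusted p of 0.170) and -0.04 (adjusted p of 0.711). The highest levels were those of Uqcrb, a ubiquinone-binding subunit, at a mean of 304.9 FPKM, and Uqcr10 at 186.4 FPKM. Their log2 fold changes were -0.09 (adjusted p of 0.392) and -0.23 (adjusted p of 0.103).

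Complex IV, cytochrome c oxidase, had a median of -0.26 and 5 called genes of 12 tested, 41.7% against 8.56% of all genes and 17.4% of genes of the members' length. Its median moved to -0.295 when siAirn replicate 2 was left out. Leaving out the first NC library gave -0.339, and leaving out the second gave -0.175. Each of these fits left a group with a single library, so the calls of the complex in them are not compared here. The order of the complexes was not tested, and without siAirn replicate 1 the medians of complexes I and IV were -0.234 and -0.226. The called genes were Cox6a1, Cox7a2, Cox5b, Cox6c and Cox7a2l. In each of them the 4 libraries separated by label. After the GC and length correction the median of the complex was -0.15 and only Cox6c was called. With the FPKM-implied length the median was -0.108 and no gene of the complex was called.

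Cox6a1, the form of subunit VIa outside heart and muscle, at chr5:115345642-115348981 on the minus strand, was the most abundant transcript of the complex, with a mean of 570.0 FPKM. It had 262.3 and 282.4 CPM in NC and 194.5 and 203.4 CPM in siAirn, 27.0% lower, with a log2 fold change of -0.45 (SE 0.07) and an adjusted p of 0.0103. Its GC content, 62.7%, was well above the member median of 50.2%. With the GC and length correction its log2 fold change was -0.18 with an adjusted p of 0.0948. Its call held with GC content alone corrected (-0.28, adjusted p of 0.0322) and with length alone corrected (-0.27, adjusted p of 0.0308). Cox7a2 had 63.1 and 71.9 CPM against 52.3 and 52.5 CPM, a log2 fold change of -0.37 (SE 0.08) and an adjusted p of 0.0278. Cox7a2l had 128.9 and 138.5 CPM against 107.9 and 111 CPM, -0.29 (SE 0.07) and an adjusted p of 0.0297. Both lay below NC in each siAirn library. Their corrected log2 fold changes were -0.179 (adjusted p of 0.113) and -0.155 (adjusted p of 0.131), so the correction ended both calls. That of Cox7a2l was also lost with limma (adjusted p of 0.0522 and 0.0531) and without any 1 library (0.0587 to 0.180).

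Cox5b, which binds zinc on the matrix side, and Cox6c, a membrane subunit, had log2 fold changes of -0.31 and -0.30 with adjusted p values of 0.0302 and 0.0399, and after the correction -0.18 (adjusted p of 0.1) and -0.32 (adjusted p of 0.0463). With the FPKM-implied length Cox5b stood at -0.128 (adjusted p of 0.198) and Cox6c at -0.148 (adjusted p of 0.175). Both genes were named after their values were seen. Of the windows of Cox5b, 25.9% occur in another gene. Cox7c and Cox8a, small membrane subunits and next in level at 424.3 and 420.6 FPKM, had log2 fold changes of -0.15 (adjusted p of 0.222) and -0.26 (adjusted p of 0.0586). Cox7b, another small membrane subunit, had 82.2 and 89.6 CPM against 83.4 and 83.3 CPM, with overlapping groups and -0.04 (SE 0.07).

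Several subunits of complex IV exist in a general form and in a form of heart, muscle, lung or testis. The general forms made up nearly all of the signal. Cox4i1 stood at 321.6 and 363.3 FPKM in NC and at 289.9 and 300.5 FPKM in siAirn, with a log2 fold change of -0.26 (adjusted p of 0.0621). Cox4i2, the lung and hypoxia form, was between 0.28 and 0.45 FPKM, at most 0.150% of Cox4i1 in any library. Its log2 fold change of 0.28 (SE 0.48) rested on less than 1 CPM in each library. Cox6a2 was between 0.21 and 0.61 FPKM, Cox6b2 between 0.66 and 0.99 FPKM, and Cox7a1 was listed at 0.46 and 0.22 FPKM in NC and at 0 in both siAirn libraries, from 2 and 1 counts against 0 and 0. These 3 were not tested. Cox6b1, the general partner of Cox6b2, had 379.4 and 417.6 FPKM against 361.2 and 366.8 FPKM and a log2 fold change of -0.19 (adjusted p of 0.115). In all 4 libraries the general form was the higher of each of these pairs.

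In complex V, the ATP synthase, all 17 genes had log2 fold changes below 0, with a median of -0.20, and 2 fell, 11.8% against the same 8.56% and 17.4%. Atp5d, the delta subunit of the rotating central stalk, at chr10:80138632-80145818 on the plus strand, had 248.6 and 246 CPM in NC and 194 and 194.1 CPM in siAirn, 21.5% lower, with a log2 fold change of -0.35 (SE 0.06) and an adjusted p of 0.0134. The replicates of each group were almost equal. Its corrected log2 fold change was -0.12 with an adjusted p of 0.240. Atp5h, subunit d of the peripheral stalk, named after its values were seen, had -0.28 (SE 0.06) and an adjusted p of 0.0297, and after the correction -0.177 with an adjusted p of 0.115.

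Atp5b, the catalytic beta subunit, was the most abundant of all 84 members, with a mean of 685.4 FPKM. It had 1225 and 1314 CPM in NC and 1112 and 1176 CPM in siAirn, groups that did not overlap, with a log2 fold change of -0.15 (SE 0.06) and an adjusted p of 0.156. Atp5j2, subunit f of the membrane part, was next at 289.7 FPKM, with -0.18 (adjusted p of 0.196). Atp5f1, subunit b of the peripheral stalk, had -0.20 with an adjusted p of 0.0749, and it was the sole member called under both corrections, with log2 fold changes of -0.31 (adjusted p of 0.0293) and -0.27 (adjusted p of 0.0379).

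Atp5a1, the alpha subunit, is present in the enzyme in the same number as the beta subunit, yet it was listed far lower. It had 11.7 and 15.2 FPKM in NC and 6.4 and 10.99 FPKM in siAirn, and Atp5b exceeded it 59.0- and 48.3-fold in NC and 101- and 61.3-fold in siAirn. Its counts were fractional in the deposited table, which marks estimated shares of reads. No 50-base window of its longest GENCODE transcript occurs in another gene, and its other transcripts were not searched. It had the largest decrease of any member, with a log2 fold change of -0.67, but also a wide error (SE 0.25) and an adjusted p of 0.108. In CPM it measured 27.3 and 35.7 against 14.5 and 25.2, groups that did not overlap. The call depended on the tool and the library, with adjusted p values of 0.0481 in DESeq2 and 0.0462 in the likelihood-ratio test. Without siAirn replicate 1 the log2 fold change was -0.32 (adjusted p of 0.178), and without siAirn replicate 2 it was -1.12 (adjusted p of 0.00217). After the GC and length correction it was -0.56 with an adjusted p of 0.196.

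The remaining subunits of complex V, none of them called, spanned its rotor and stalks. Atp5c1, the gamma subunit that turns inside the catalytic head, had 181.5 and 194.6 CPM in NC and 163.9 and 178.1 CPM in siAirn, with -0.14 (adjusted p of 0.229). Atp5e, the epsilon subunit, had 41.0 and 50.8 CPM against 40.8 and 40.3 CPM, with -0.18 (adjusted p of 0.293). Atp5o, the oligomycin sensitivity protein that ties the head to the peripheral stalk, had 134.1 and 152.2 CPM against 130 and 141.3 CPM, with -0.08 (adjusted p of 0.550). The groups overlapped in Atp5o but not in Atp5c1 or Atp5e, and in all 3 genes NC replicate 2 held the highest value. Atp5j, coupling factor 6 of the stalk, had -0.22 with an adjusted p of 0.0610, and Atp5mpl, a small membrane subunit, had -0.27 with an adjusted p of 0.0862.

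The c subunit of the rotor ring is encoded by 3 genes that give the same mature protein. Atp5g3 was highest, with 183.8 and 214.6 FPKM in NC and 170.3 and 188.6 FPKM in siAirn. Atp5g2 followed with 90.8 and 77.3 FPKM against 68.1 and 79.8 FPKM, and Atp5g1 with 50.7 and 59.4 FPKM against 53.6 and 59.2 FPKM. The groups overlapped in all 3 genes. Log2 fold changes were -0.20 (adjusted p of 0.194), -0.24 (adjusted p of 0.208) and -0.01 (adjusted p of 0.954). Atp5l, subunit g of the membrane part, had -0.05 (adjusted p of 0.709).

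Summed over all 84 members, the signal was 7787 and 8458 CPM in NC and 6919 and 7179 CPM in the libraries labelled siAirn, 13.2% lower. The sum was lower by 15% in complex I (2266 ± 137 against 1926 ± 22 CPM, SD, n = 2), 10.6% in complex II, 8.69% in complex III, 16.9% in complex IV (1601 ± 110 against 1330 ± 33.9 CPM) and 11.6% in complex V. These sums were not tested. As a share of all FPKM, the members made up 2.12% and 2.26% in NC against 2.04% and 2.06% in siAirn. The share in NC replicate 1 was nearer to the siAirn libraries than to NC replicate 2.

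The NC libraries themselves differed in these genes. The median member was 0.13 higher on the log2 scale in NC replicate 2 than in NC replicate 1, and only 7 of 78 members were lower there, while the median of all genes was 0.00 apart. Between the siAirn libraries the member median differed by 0.04. Against NC replicate 1 the members were lower by medians of -0.17 and -0.12 in siAirn replicates 1 and 2, with 69 and 64 of 78 lower. Against NC replicate 2 the medians were -0.31 and -0.29, with 77 and 74 lower. The direction was thus common to all 4 library pairs, and its size changed by about the difference between the NC libraries.

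When NC replicate 1 was left out, the member median was -0.29, and without NC replicate 2 it was -0.15. No member was called in either fit, which left NC with a single library assumed to vary like the siAirn libraries. In those fits 0.236% and 0% of all genes were called lower, so few genes of any kind could pass. Without siAirn replicate 1 or 2 the medians were -0.21 and -0.26, in fits that left siAirn with a single library.

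**Figure D3:**
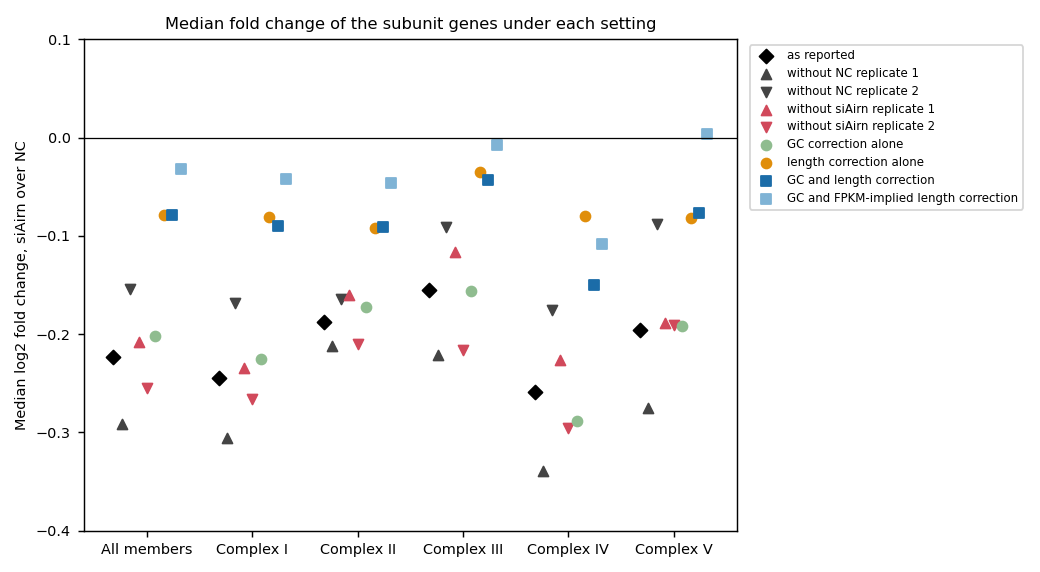
Median log2 fold change (siAirn over NC, vertical axis) of all members and of each complex, as reported and with each library left out or with corrections for GC content, length or both. The medians as reported lie between -0.26 and -0.16 and stay below 0 in each setting drawn except complex V with the FPKM-implied length, at 0.004, and the corrections that use length bring them nearest to 0.

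The length implied by the deposited counts and FPKM had a median of 591.5 bases over the 77 members with a value, against 2761 bases over all genes tested. Over all genes tested the log2 fold change rose with length, with a Spearman rho of 0.41 across 13100 genes. With the genes cut by length into 5 equal parts, the shortest part reached up to 1501 bases, its median log2 fold change was -0.17, and 15.8% were called lower. In the longest part the median was 0.20 and 24.2% were called higher. The shortest part held 67 of the 77 members, including all 15 called, and its members had a median of -0.23.

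Taking all 1148 genes tested whose length lay between the quartiles of the members (392.7 and 1043 bases), the median was -0.20 and 17.4% were called lower, against -0.22 and 19.2% for the members. Values below 0 were found for 81.1% of these genes, against 98.7% of the members, and both siAirn libraries lay below both NC libraries for 57.4%, against 74.4%. The members' median and share of calls thus lay close to those of all genes of their length. Within the members the rho with length was 0.22 and with GC content -0.38, and these genes share their libraries and are not independent. With the correction for GC content alone 19 of 77 members were called lower, against 7.09% of all genes, with a median of -0.20. Of these 19, 11 were among the 15 above. With the correction for length alone 5 of 77 were called lower, against 7.37% of all genes, all 5 among those 15, with a median of -0.08. RNA integrity, fragment selection and cell state were not measured in the files, and their part in the relation with length was not tested.

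**Figure D4:**
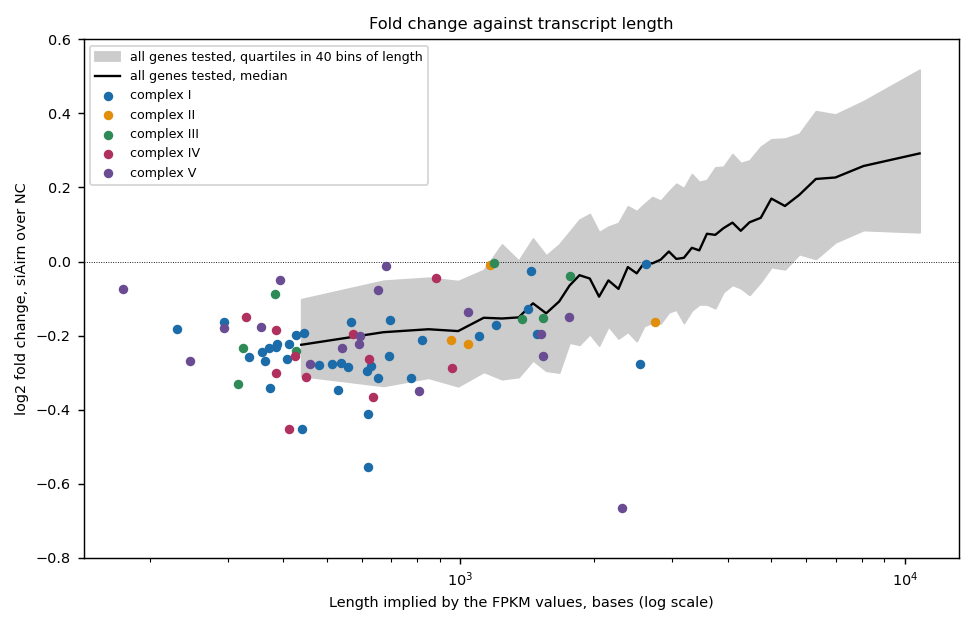
Log2 fold change (siAirn over NC, vertical axis) of the 77 members with a length, 1 of them not drawn, coloured by complex, against the transcript length implied by the FPKM values (log scale), over the median (line) and quartiles (grey) of all genes tested in 40 length bins. The quartiles of the members are 392.7 and 1043 bases, a range where the line for all genes is also near -0.2, and the largest decreases are those of Atp5a1, Ndufa8, Cox6a1 and Ndufa6.

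Other genes of the pathway were described from lists that the symbol rule did not cover, and their counts are to be read against the 8.56% of all genes called lower and the 8.27% called higher. Among 20 carriers and subunits outside the rule, 1 fell and none rose, with a median log2 fold change of -0.12. The called gene was Cyc1, cytochrome c1 of complex III, at 131 and 148 CPM in NC and 116 and 111 CPM in siAirn (adjusted p of 0.0469). Of 47 assembly factors tested, 1 fell (2.13%) and none rose, with a median of -0.12. This was Cox14, which helps to assemble complex IV, at 24.6 and 26.9 against 18.8 and 19.3 CPM (adjusted p of 0.0262). Among 13 tricarboxylic acid cycle enzymes, 2 fell and none rose, among them Idh3g with -0.32 (adjusted p of 0.0187), and the median was -0.11.

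Of 20 regulators of mitochondrial biogenesis, none fell and 1 rose, Gabpb2, a subunit of the ETS family factor GABP, at 32.6 and 36.2 CPM in NC and 43.7 and 43.3 CPM in siAirn (adjusted p of 0.0359). The median of that list was 0.08, and its median implied length was 2782 bases. Mitochondrial ribosomal proteins had a median of -0.15 with 11 of 78 (14.1%) called lower, led by Mrps24 with -0.51 (adjusted p of 0.0134) and Mrps7 with -0.46 (adjusted p of 0.00906). Import and carrier genes had a median of -0.06 with 4 of 29 (13.8%) called lower. Cytosolic ribosomal proteins, which are short transcripts outside mitochondria with a median implied length of 578.9 bases, had a median of -0.22 with 24 of 82 (29.3%) called lower. After the GC and length correction, where 5.13% of all genes were called lower, 7 of these 82 were called lower and 1 higher with a median of -0.06, 5 mitochondrial ribosomal genes, 2 import and carrier genes and no carrier or subunit outside the rule, assembly factor or tricarboxylic acid cycle gene were called lower, and no regulator was called higher. No list was compared with another by a test.

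Markers of endothelial and other cell types were followed in the same libraries. The 8 endothelial markers summed to 9743 and 9297 CPM in NC and 6971 and 6134 CPM in siAirn. Among them 6 fell, as did 7 of the 8 LSEC markers, against 8.56% of all genes called lower. Hepatocyte markers, 10 genes, summed to 666.2 and 839.1 CPM in NC and 915.5 and 1193 CPM in siAirn, and 9 stellate cell and fibroblast markers to 836.2 and 1018 against 1020 and 1401 CPM. Of these, 1 of 8 hepatocyte markers tested and 3 of 9 stellate markers rose, against 8.27% of all genes called higher. Macrophage and Kupffer cell markers, 10 genes, summed to 211.7 and 255.3 against 164.8 and 135.7 CPM, and 5 of 9 tested fell. The 5 lymphocyte markers lay between 2.93 and 4.92 CPM in sum and the 4 cholangiocyte markers between 17.6 and 23.8 CPM, with none called in either list. No marker of any list was at 0 in all libraries. The part of these values in the subunit values was not tested.

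The promoters of the members were searched for words that the symbol rule did not use, and each word was absent from most member windows. In RefSeq windows (GRCm38.p6) that hold each gene's start and the bases before it, 72 windows matched 67 members by symbol, and 5 words were searched on both strands. The NRF1 word GCGCANGCG, for nuclear respiratory factor 1, a known activator of respiratory chain genes, was found in 29.2% of member windows and in 6.25% of all 32851 windows. The ETS word CCGGAAG was in 22.2% against 8.86%, the YY1 word AAGATGGC in 13.9% against 2.75%, the ERR word TCAAGGTCA, for estrogen-related receptors, in 2.78% against 0.423%, and the SP1 word GGGCGG in 38.9% against 35.7%. These matches describe the letters in the windows and are not evidence of binding.

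Among the 14 windows of called members, 5 held the NRF1 word, 3 the ETS word, 7 the SP1 word and none the YY1 or ERR word. The 200 bases before the start given by RefSeq are shown for the called genes Ndufa8 (chr2:36049339-36049538, minus strand), Cox6a1 (chr5:115348959-115349158, minus strand), Uqcr11 (chr10:80406822-80407021, minus strand) and Atp5d (chr10:80142075-80142274, plus strand), and for Uqcrfs1 (chr13:30545317-30545516, minus strand), whose groups overlapped. Capitals mark the NRF1 and ETS words on either strand, and a longer run of capitals holds overlapping matches. Atp5d, for which the first of 2 windows is given, and Uqcrfs1 have none of these words in the stretch shown. The RefSeq starts differ from the GENCODE spans given above, so the Atp5d stretch lies inside its GENCODE span and the other 4 overlap the edge of theirs.
Ndufa8: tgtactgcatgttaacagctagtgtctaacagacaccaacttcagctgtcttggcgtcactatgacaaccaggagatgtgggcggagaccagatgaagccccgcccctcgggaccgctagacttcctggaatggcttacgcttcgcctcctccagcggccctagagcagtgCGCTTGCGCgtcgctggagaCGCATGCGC
Cox6a1: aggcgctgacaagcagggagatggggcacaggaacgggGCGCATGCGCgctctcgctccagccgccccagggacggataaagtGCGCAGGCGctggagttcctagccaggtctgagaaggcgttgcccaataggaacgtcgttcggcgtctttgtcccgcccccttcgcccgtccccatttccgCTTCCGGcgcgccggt
Uqcr11: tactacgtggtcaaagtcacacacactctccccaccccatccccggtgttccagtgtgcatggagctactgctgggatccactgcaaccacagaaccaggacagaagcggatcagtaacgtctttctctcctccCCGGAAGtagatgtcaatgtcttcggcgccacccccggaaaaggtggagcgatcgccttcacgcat
Atp5d: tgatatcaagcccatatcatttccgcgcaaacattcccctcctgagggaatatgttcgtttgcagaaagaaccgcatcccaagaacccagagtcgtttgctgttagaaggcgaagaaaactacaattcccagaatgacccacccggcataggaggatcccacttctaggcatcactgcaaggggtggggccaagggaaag
Uqcrfs1: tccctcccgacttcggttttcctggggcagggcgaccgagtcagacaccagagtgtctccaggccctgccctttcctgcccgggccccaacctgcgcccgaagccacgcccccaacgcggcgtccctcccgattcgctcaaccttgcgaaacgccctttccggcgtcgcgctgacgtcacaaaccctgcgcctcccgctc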

How the data were processed

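RNA from 4 libraries (2 NC, 2 siAirn) was sequenced by the authors as single-end 50-base reads on BGISEQ-500. The authors deposited estimated counts with no normalization, of which 76.5% to 76.8% are whole. The second set of values was read as FPKM computed by the authors, since the header names no unit. The submitters' processing notes list RSEM, Bowtie2 and BWA and the human build hg19, with no role for each. The means deposited by the authors were not used.

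Counts were rounded and fitted in R 4.3.3 with edgeR 4.0.16 (TMM, factors 0.985 to 1.02, filterByExpr with its minimum count of 10) by the quasi-likelihood test over all 13628 genes passing, without covariates, with Benjamini-Hochberg adjustment, and CPM used the TMM-scaled library sizes. The common biological coefficient of variation was 0.0754. DESeq2 1.42.0, limma 3.58.1 on log2(FPKM + 1) and other settings were alternatives. Genes of known fold change in simulated data were used to check the fits. Positions, length, GC content and shared 50-base windows came from GENCODE M21 (GRCm38), matched to 82 of the 84 members. Length, GC content and windows were those of the longest transcript of each gene.

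The members and gene lists were chosen with earlier results of these data known. Values are given for the 2 highest members and the highest and lowest fold change of each complex, isoform pairs, the 5 smallest adjusted p values and genes past the study threshold. Other called or described members were picked after their values were seen. Single values of some genes are not reported here, though these genes count in the totals and medians.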

Additional observations from a re-analysis of the deposited data

How the results depend on the processing

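The member count of 15 called lower became 24 with edgeR's likelihood-ratio test, 8 with limma on log2(FPKM + 1) or log2(FPKM + 0.1), 8 among members with whole counts, 1 at an adjusted p under 0.01, 5 with the correction for length alone, 4 with GC and length and 1 with GC and the FPKM-implied length, and it ranged from 0 to 9 when a library was left out. DESeq2, upper-quartile scaling, other count filters and the correction for GC alone gave counts within 1.5 times of it. The share of all genes called lower changed too, from 8.56% as reported to 11.6% with the likelihood-ratio test. That share was 7.03% and 6.99% with limma for the 2 pseudocounts, and 7.37% with length alone. With GC and length it was 5.13%, and with GC and the FPKM-implied length 4.66%. The fits that left out a library had a single library in a group. Their counts therefore cannot be compared with those of the other settings, and no conclusion is drawn from them. Only 56 members with whole counts were tested, so their 8 calls are 14.3%, against 19.2% of all members tested. The 2 members past the study threshold became 0 with either full correction or a fold change over 2, 1 with GC or length alone, 1 among whole counts, and 1 to 4 when a library was left out. The corrections for GC alone, for length alone and with the FPKM-implied length were chosen after seeing the data.

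The member median of -0.223 ranged from -0.291 to -0.154 without 1 library. The corresponding ranges were -0.306 to -0.168 for complex I, -0.212 to -0.160 for complex II, -0.221 to -0.091 for complex III, -0.339 to -0.175 for complex IV and -0.275 to -0.088 for complex V. With GC and length the medians were -0.079 for all members and -0.090, -0.091, -0.043, -0.150 and -0.077 for complexes I to V. With GC and the FPKM-implied length they were -0.032 for all members and -0.042, -0.046, -0.007, -0.108 and 0.004, and with length alone -0.079 and -0.081, -0.092, -0.035, -0.080 and -0.082.

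With the replicate number as a replicate block, 53 of 78 members were called lower, against 17.9% of all genes. Among the 53 were 3 of 4 in complex II, 4 of the 7 core subunits of complex I and Atp5a1 (adjusted p of 0.000476). The member median was unchanged at -0.22. With the block and the GC and length correction 21 of 77 members were called lower, against 17.4% of all genes. Of these 21, 2 were in complex II, and 1 member passed the study threshold. The medians were -0.079 for all members and -0.089, -0.090, -0.043, -0.150 and -0.075 for complexes I to V. Same-numbered libraries deviated together with a correlation of 0.27, but with 2 pairs and no label that ties a number to an animal or day the libraries share only a number.

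Members below 0 numbered 69 of 77 with limma, 67 of 77 with GC and length, 48 of 76 with the FPKM-implied length and 63 of 77 with length alone. Single values are given here only for members that the naming rule covers and that turned sign. With limma these were Ndufs1 (0.029 and 0.030 for the 2 pseudocounts), Sdhd (0.036), Uqcrfs1 (0.037), Atp5g1 (0.038 and 0.039), Cox7b (0.003) and Atp5l (0.010). With GC and length they were Sdhd (0.113), Uqcrfs1 (0.096), Cox8a (0.000) and Atp5g2 (0.032, and 0.038 with the block). With the FPKM-implied length they were Ndufa12 (0.037), Sdhb (0.003), Sdhd (0.119), Uqcr10 (0.037), Uqcrfs1 (0.106), Uqcr11 (0.003), Atp5j2 (0.032), Atp5g1 (0.122), Cox4i1 (0.038), Cox6b1 (0.035), Cox7b (0.012), Cox8a (0.063), Atp5g2 (0.098) and Atp5l (0.018). With length alone they were Ndufs1 (0.041), Sdhd (0.152), Uqcrb (0.091), Uqcrfs1 (0.147), Cox7c (0.032) and Cox7b (0.130). Leaving out each library in turn gave values of -0.042 to 0.028 for Ndufs1, -0.103 to 0.085 for Sdhd, -0.065 to 0.053 for Uqcrfs1, -0.123 to 0.106 for Atp5g1, -0.107 to 0.018 for Cox7b, -0.148 to 0.052 for Atp5l and -0.108 to 0.594 for Cox4i2. Apart from what each setting removes, the cause was not tested.

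Depth limits Cox4i2, with less than 1 CPM in each library, and the 6 untested members, with at most 8.49 counts in any library.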

Other observations

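Among the 82 members matched to the annotation, 8 share over 25% of the 50-base windows of their longest transcript with other genes. These are Ndufs3, Ndufb4, Atp5o, Ndufb6, Ndufs5, Ndufa13, Cox7c and Cox5b. Members below this cut can have uncertain reads too. Atp5l shares 7.49% of its windows with 640 other genes and Atp5g1 11.6% with 366, and the counts of both are fractional. Their longest transcripts have 6310 and 4715 bases, against implied lengths of 392.7 and 681.5 bases. Of the same 82 members, 3 have over 25% of their exonic sequence under another gene. Ndufb4b and Ndufb4c were not matched and so were not checked. Ndufs3 shares most, 39.7%, chiefly with Gm12251. Atp5o lies under another gene for 47.9% of its exonic sequence, and its log2 fold change was -0.08 (edgeR adjusted p of 0.550). Deposited counts were whole in all libraries for 61 members and fractional for 23.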
